A study of Sus scrofa with 48 samples.

Results

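The genotype comparison in fasted fat set 6 arrays of N298 gilts against 6 arrays of D298 gilts, 12 of the 48 arrays in the study. The members were the fat arrays whose labels give a fasted gilt of either genotype, and no measured value was used to choose them. All gilts were Yorkshire females 6 months old, from a line bred for low residual feed intake, which means that the animals eat less than their growth and size would predict. D298 gilts were homozygous for the usual form of the melanocortin 4 receptor (MC4R), with aspartate at the variant position, and N298 gilts were homozygous for the D298N form, with asparagine there. Both groups had gone without feed for 3 days before sampling, and both were genotyped before they were moved to the experimental unit. Each of the 24 gilts of the study gave 1 fat and 1 liver array, so the 12 arrays stand for 12 animals, and 12 fat arrays of freely fed gilts of the same genotypes served as a second comparison. The labels do not say from which depot the fat was taken, and all animals carried the background of 1 selected line, which both genotypes share.

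MC4R is a receptor of hypothalamic neurons that bind melanocortin peptides made from proopiomelanocortin, and the agouti-related protein of hungry animals opposes them. Signalling through it lowers feed intake and raises sympathetic outflow to fat. In pigs the D298N form has been linked to appetite, growth and fatness. Fat is not only adipocytes: a scaffold of collagens, elastic fibres and proteoglycans, made largely by fibroblasts and adipocyte progenitors, surrounds each fat cell, and proteases and their inhibitors remodel it when fat cells swell or shrink.

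The deposited signals were on 1 scale: the mean of each array without the outer 2% at each end was about 500, and the median signal of the 12 arrays lay between 167 and 192. Adipocyte markers identified the tissue. Adiponectin (ADIPOQ), a hormone of fat cells, had signals of 21044 to 30764 in D298 and 20044 to 33788 in N298. Markers of skeletal muscle set the arrays apart: the mean log2 signal of 19 muscle genes ran from 5.50 (median 9.17) to 12.41 in D298 and from 5.86 (median 7.62) to 11.76 in N298, with 3 D298 and 2 N298 arrays above 11. Across the 24 fat arrays, among probe sets above the median signal, the main axis of residual variation held 24.7% of the variance. This axis and the muscle mean, both taken as deviations from the 4 group means, correlated by 0.98 over the 24 arrays, which is a description. Of the 19 muscle genes 15 are themselves above the median signal. The mean of 13 hepatocyte genes was 9.72 on D298 array 5 and 5.51 to 6.41 on the other 11 fasted arrays. The log2 ratio of 3′ to 5′ GAPDH signals, a sign of RNA integrity, had a median of 1.26 in D298 and 2.03 in N298, with ranges of 0.59 to 2.34 and 0.65 to 2.44. Their part in the results was not tested beyond the values given below with and without those arrays.

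No gene differed between the genotypes after correction. At an adjusted p under 0.05, 0 of 23999 probe sets were called (0% of those tested), and the smallest adjusted p was 0.213 (limma, Benjamini-Hochberg over all probe sets). Without adjustment 1646 probe sets (6.86%) had p under 0.05, 882 of them (3.68%) with lower and 764 (3.18%) with higher signals in N298, and 51.4% of all differences lay below 0. Represented by its brightest probe set, each of 6765 named genes gave a similar picture: 528 (7.80%) had an unadjusted p under 0.05, and 261 (3.86%) had lower and 267 (3.95%) higher signals in N298. With each array centred on its median these shares were 2.50% and 5.79%, so the split between directions depended on the scaling.

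The size of effect left possible depended on signal. The 95% interval of the genotype difference lay wholly within 2-fold for 66.4% of all probe sets and within 1.5-fold for 45.4%. With 32 added to each signal before log2 these shares were 96.6% and 71.6%, so they depended on how dim signals were treated. Of the 11999 probe sets above the median signal, 96.7% had an interval within 2-fold and 80.2% within 1.5-fold. Among the 6000 dimmest probe sets 3.72% of intervals lay within 2-fold, so for most of them these arrays set no bound of that size. The median margin, the distance from the estimate to either end of its interval, was 0.45 on the log2 scale over all probe sets (1.37-fold) and 0.29 (1.22-fold) in the brighter part. These intervals hold for 1 probe set each and are not widened for the number of probe sets. For 19 skeletal muscle markers the median margin was 3.14, or 8.82-fold, and 1 of 19 intervals lay within 2-fold.

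**Figure D1:**
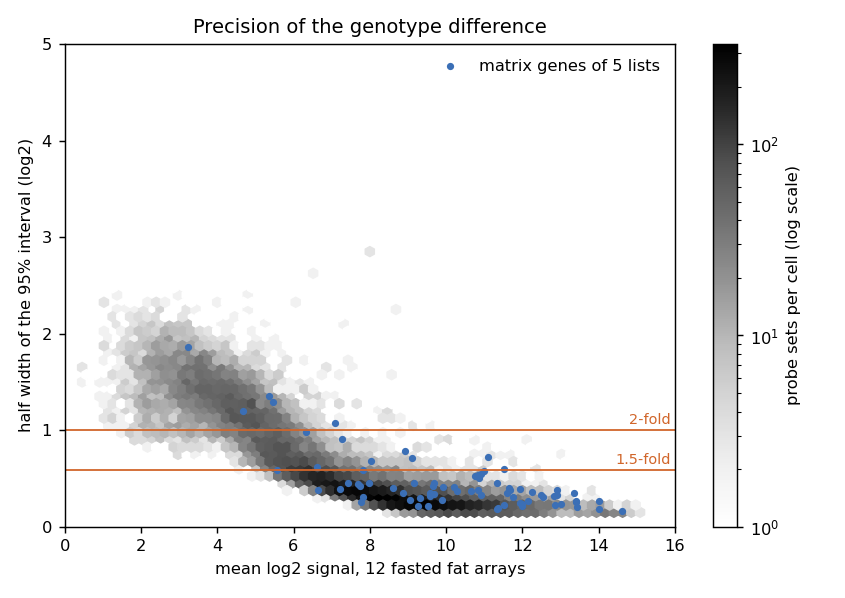
Margin of the N298 minus D298 difference, from the estimate to either end of its 95% interval (log2, vertical axis), against mean log2 signal over the 12 fasted fat arrays (horizontal axis); grey cells count probe sets on a log scale, blue points are the 75 matrix genes, and lines mark 2-fold and 1.5-fold. The margin shrinks with signal, from a median of 1.33 in the 6000 dimmest probe sets to 0.24 in the 6000 brightest.

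Genes of the extracellular matrix had lower signals in N298 than in D298 fasted fat, none of them past the adjusted threshold. In 5 lists of matrix genes 75 of 140 genes were measured, and 63 of the 75 (84.0%) had a difference below 0, against 49.5% of all genes. The median log2 difference was -0.27, against 0.00 for all genes. At an unadjusted p under 0.05, 30 of the 75 (40.0%) were lower in N298 and 0 were higher, where 3.86% and 3.95% of all genes were. The lists were chosen with earlier results of these data known, so these counts are a description and not a test. All 75 genes were read on the same 12 animals and are not independent of each other. The groups did not overlap, with every N298 array below every D298 array, for 2 of the 75 (all genes: 0.222%). These were prolyl 4-hydroxylase subunit P4HA2 and the serine protease HTRA1. Of the 75 intervals, 58 lay within 2-fold and 28 within 1.5-fold. Bulk fat cannot tell fewer matrix-producing cells from less RNA per cell.

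**Figure D2:**
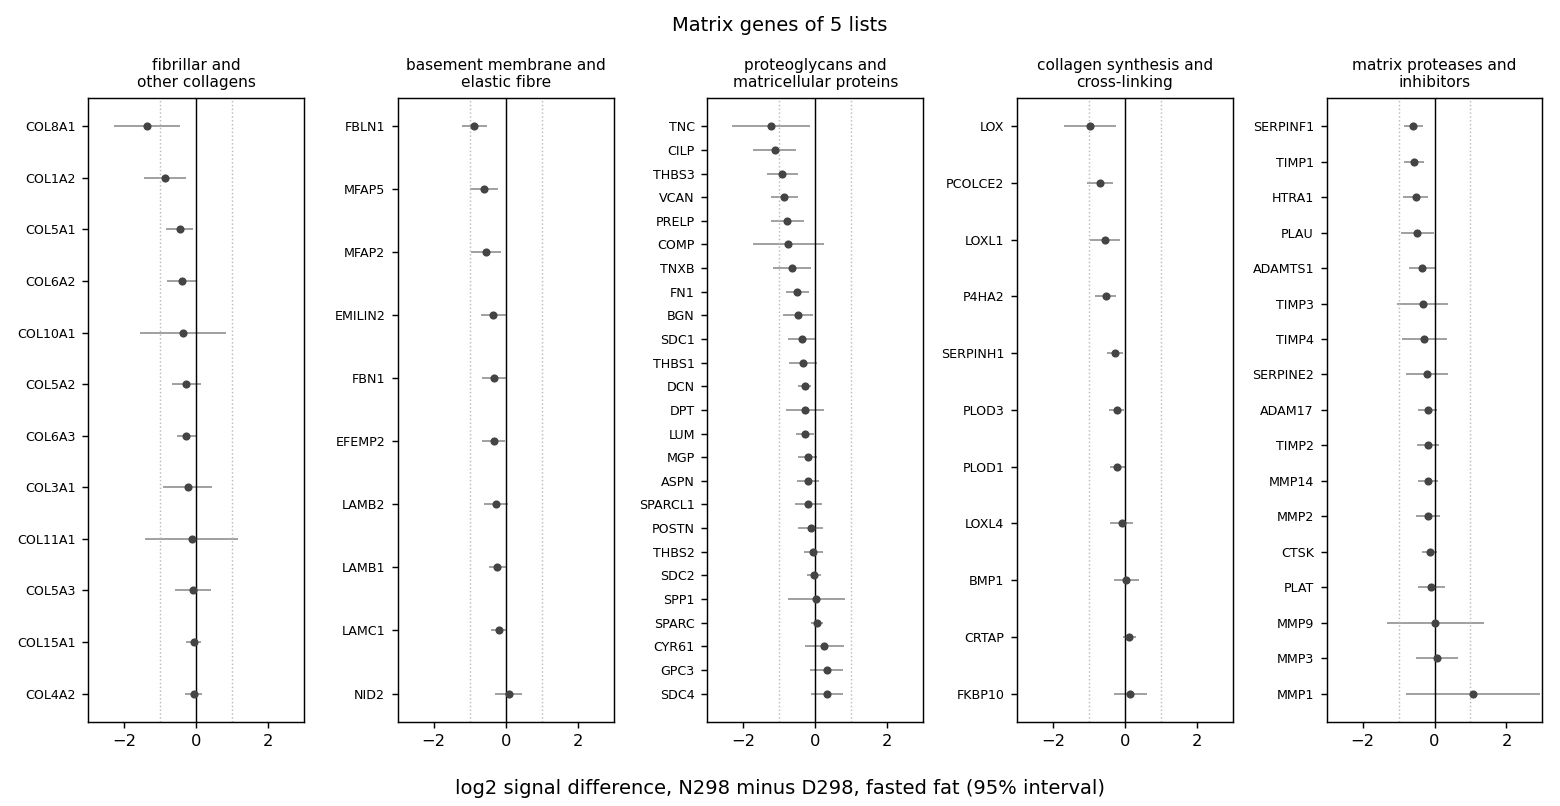
N298 minus D298 difference in fasted fat (log2, horizontal axis) with its 95% interval for each of the 75 measured matrix genes, in 5 panels by role, sorted within each panel; dotted lines mark 2-fold. In the panels 63 points lie left of 0, and the widest intervals belong to MMP1, MMP9 and COL11A1.

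The shift was present on most arrays rather than on 1. The mean log2 signal of the 75 genes was 10.12 to 10.50 (median 10.23) on the 6 D298 fasted arrays and 9.69 to 10.10 (median 9.97) on the 6 N298 fasted arrays. These groups did not overlap but nearly met, at 10.118 and 10.099. Taken by list, the means of the collagen, basement membrane, collagen synthesis and protease genes overlapped between the groups. Only the proteoglycan list was separate, by 10.62 against 10.59. On fed arrays the mean of the 75 genes was 9.79 to 10.63 (median 10.25) in D298 and 9.88 to 10.33 (median 10.25) in N298. The 30 genes at an unadjusted p under 0.05 became 19 without D298 fasted array 5, the array with hepatocyte markers. They became 19 without all 4 fat arrays numbered 6 and 20 without the 4 numbered 5. In these settings the share of all genes lower at that level went from 3.86% to 2.87%, 3.52% and 2.81%. Without the 4 fat arrays of high hepatocyte signal 18 of 75 were lower and 0 higher, with a median of -0.21 (all genes lower: 3.00%). On arrays of low muscle signal alone, 3 of each genotype, 9 were lower and 2 higher, with a median of -0.20 and 53 below 0, while 2.50% of all genes were lower. With the muscle mean as a covariate 26 were lower and the median was -0.28 (all genes lower: 3.62%). With the GAPDH ratio as a covariate 23 were lower and the median was -0.26 (all genes lower: 3.41%).

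**Figure D3:**
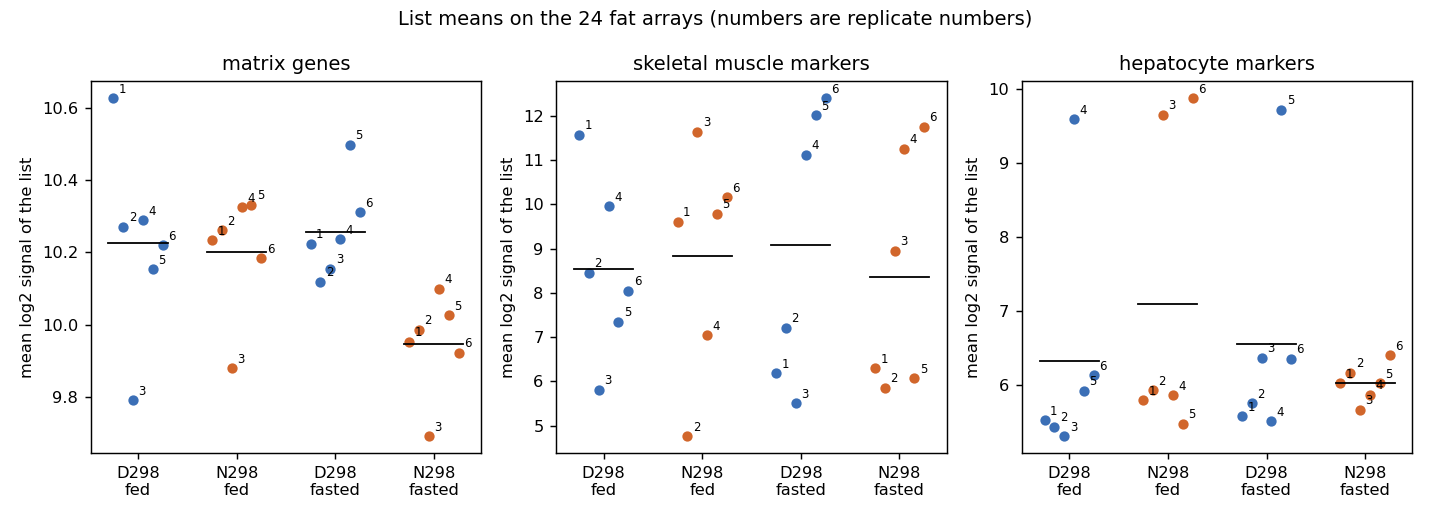
Mean log2 signal (vertical axis) of 75 matrix genes, 19 skeletal muscle markers and 13 hepatocyte markers on each of the 24 fat arrays; points are arrays with their replicate numbers, bars are group means, blue is D298 and orange is N298. The N298 fasted arrays hold matrix means of 9.69 to 10.10, below the 10.12 to 10.50 of the D298 fasted arrays, while muscle means spread over several log2 units in every group.

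Among structural proteins, 12 of 12 measured collagen genes lay below 0 (median -0.27), 4 of them at an unadjusted p under 0.05. COL1A2, a chain of type I collagen, the main fibre of connective tissue, had signals of 1878, 2790 and 4066 (lowest, median and highest array) in D298 and 890, 1374 and 3137 in N298. Of the 6 N298 arrays 5 lay below every D298 array, and the other lay above the D298 median. Its difference was -0.86 ± 0.28 (SE, log2), or 1.81-fold lower, with an adjusted p of 0.506. On the arrays of low muscle signal it was at -0.84. COL8A1, a short-chain collagen of vessel walls and stroma, had the widest gap of the collagens at -1.37 ± 0.44 (adjusted p = 0.505), and its signals of 83.2 to 511 in D298 and 48.5 to 177 in N298 overlapped on 1 D298 array. Its 3 dimmer probe sets gave -0.85 to -1.25, and on the arrays of low muscle signal COL8A1 was at -0.93. COL5A1, which starts fibril assembly, was at -0.46 (-0.19 on the low-muscle arrays, the 3 fasted arrays of each genotype with low muscle signal), and COL6A3, a microfibril chain abundant in fat, at -0.27. COL3A1, the partner of type I collagen, was at -0.23 with an interval of -0.92 to 0.45, so this probe set says little.

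Of the basement membrane and elastic fibre genes 9 of 10 lay below 0 (median -0.33), and 6 had an unadjusted p under 0.05. On the low-muscle arrays the median of the list was -0.0612. Fibulin 1 (FBLN1), a glycoprotein that binds elastic fibres and fibronectin, had the smallest p of any named gene in the comparison. Its signals were 629, 1168 and 1513 (lowest, median, highest) in D298 and 435, 677 and 778 in N298. Of the 6 D298 arrays 5 lay above every N298 array, and the lowest D298 array fell inside the N298 range. The difference was -0.87 ± 0.16, or 1.83-fold lower, with a 95% interval of -1.21 to -0.53 and an adjusted p of 0.213. On the low-muscle arrays FBLN1 was at -0.85. MFAP5 and MFAP2, small proteins on fibrillin microfibrils, were at -0.61 and -0.55 (0.000531 and -0.40 on the low-muscle arrays), and FBN1, the fibrillin that forms these microfibrils, at -0.34. The laminin chains LAMB1, LAMB2 and LAMC1 of basement membranes were at -0.24, -0.27 and -0.18. NID2, which links laminin to collagen IV, was the member above 0, at 0.08.

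Proteoglycans and matricellular proteins were the longest list, with 20 of 25 below 0 (median -0.29) and 10 at an unadjusted p under 0.05. Decorin (DCN), a small proteoglycan on collagen fibrils and one of the brightest stromal genes, had signals of 16092, 18629 and 19998 in D298 and 12467, 14548 and 17736 in N298. All 6 N298 arrays lay below the D298 median, and 4 lay below every D298 array. Its difference of -0.30 ± 0.09 had an interval of -0.49 to -0.11, one of the narrowest of the list, and an adjusted p of 0.474. Fibronectin (FN1), which anchors cells to the matrix, had signals of 6634 to 11576 in D298 and 4150 to 7396 in N298, with 4 D298 arrays above the N298 range. Its difference was -0.50 ± 0.15 (adjusted p = 0.478). On the low-muscle arrays DCN was at -0.21 and FN1 at -0.34.

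Larger differences in this list came with more spread. Thrombospondin 3 (THBS3), a secreted calcium-binding glycoprotein, had signals of 201 to 494 in D298 and 101 to 216 in N298, which overlapped by 1 array on each side. The difference was -0.91 ± 0.21 (1.88-fold, adjusted p = 0.308), and its 2 dimmer probe sets gave -0.92 and -1.30. CILP, a matrix protein of cartilage and connective tissue, had signals of 1587, 5233 and 7322 in D298 and 1307, 2104 and 2908 in N298. It was 2.18-fold lower at -1.12 ± 0.29 (adjusted p = 0.317), with 5 D298 arrays above every N298 array, and its dimmer probe set gave -0.11. Versican (VCAN), a large proteoglycan of loose tissue, was at -0.86 ± 0.18 (adjusted p = 0.236) on its brightest probe set, with signals of 84.0 to 297.96 in D298 and 50.7 to 120 in N298. The 4 other versican probe sets were dimmer and disagreed, from -1.12 to 1.31. On the low-muscle arrays THBS3, CILP and VCAN were at -0.64, -0.96 and -0.64. SPARC, an abundant collagen-binding glycoprotein, did not share the shift: its signals of 23003 to 28837 in D298 and 21711 to 27699 in N298 covered each other, and its difference of 0.04 had an interval of -0.12 to 0.21. Periostin (POSTN) at -0.13, lumican (LUM) at -0.28 and THBS2 at -0.05 were also bright, and the intervals of POSTN and THBS2 included 0. A dimmer probe set of POSTN gave 0.67.

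**Figure D4:**
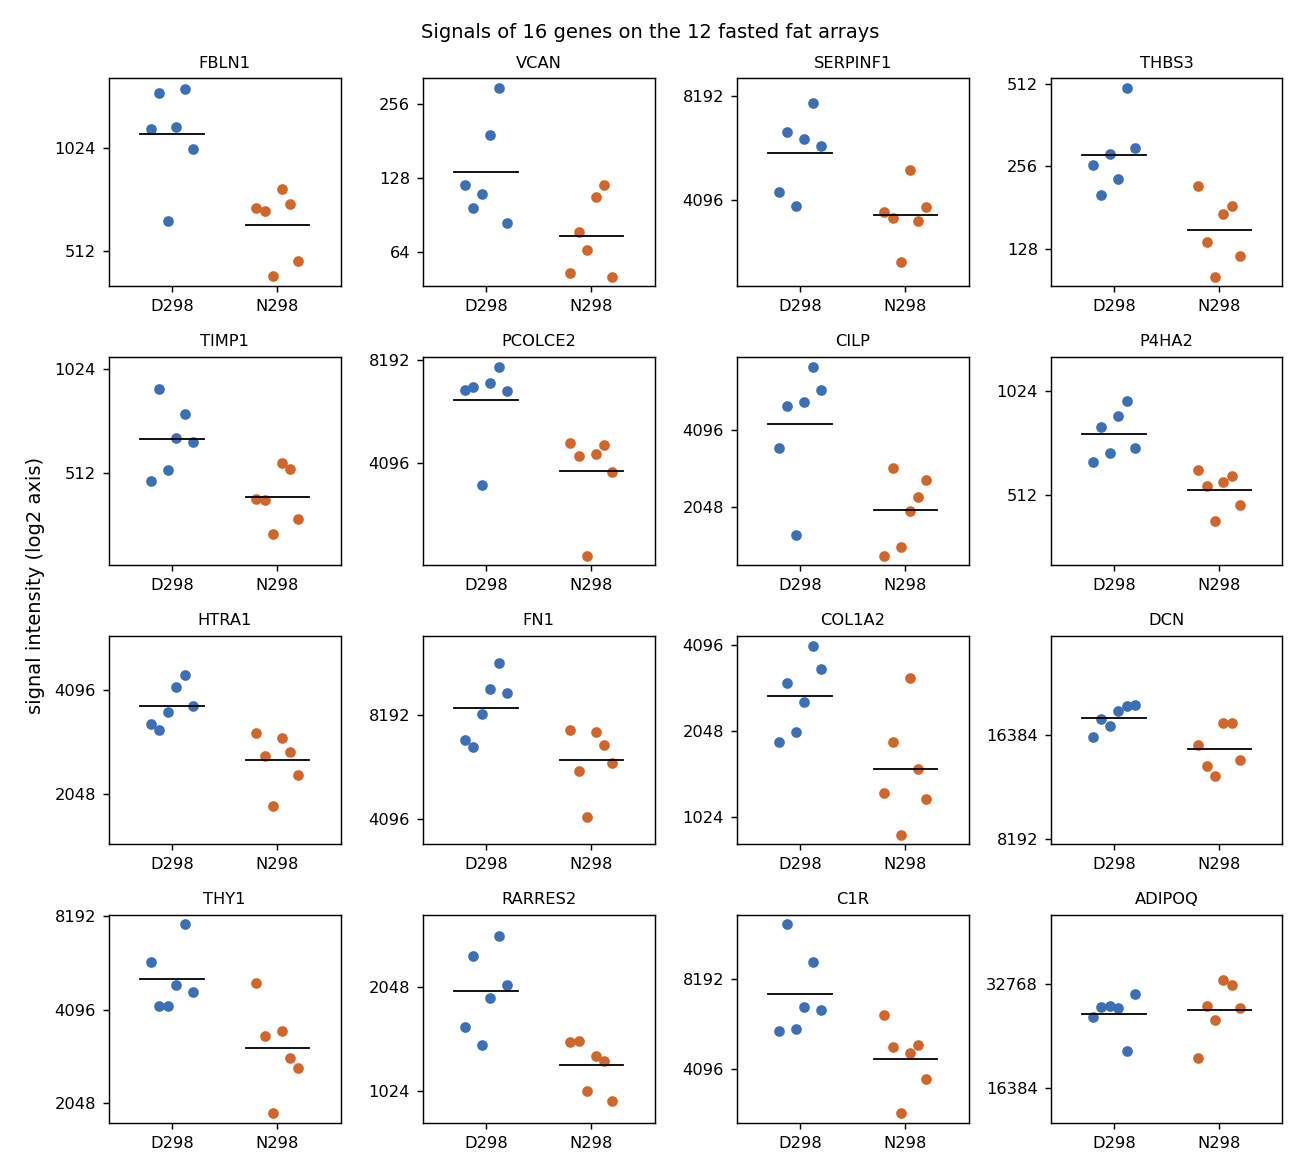
Signal intensity (log2 axis) of 16 genes on the 6 D298 (blue) and 6 N298 (orange) fasted fat arrays; points are arrays and bars the means of log2 signal. P4HA2 and HTRA1 separate the groups, FBLN1, CILP and PCOLCE2 overlap on 1 D298 array, and ADIPOQ covers the same range in both genotypes.

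Enzymes that make and cross-link collagen were below 0 for 8 of 11 genes (median -0.23), 6 at an unadjusted p under 0.05. On the low-muscle arrays the median of the list was -0.0536. P4HA2, which hydroxylates collagen prolines, had signals of 637, 753 and 954 in D298 and 429, 549 and 603 in N298, without overlap. Its difference was -0.54 ± 0.14 (adjusted p = 0.363), its dimmer probe set gave -0.42, and on the low-muscle arrays it was at -0.32. PCOLCE2, which speeds the trimming of procollagen, had signals of 3518, 6763 and 7822 in D298 and 2185, 4313 and 4681 in N298, and array 3 was the lowest of both groups. The difference was -0.69 ± 0.17 (adjusted p = 0.317), and -0.48 on the low-muscle arrays. Lysyl oxidase (LOX), which cross-links collagen and elastin, was at -0.96 with an interval of -1.69 to -0.23, and at -0.25 on the low-muscle arrays. The collagen chaperone SERPINH1 was at -0.27, and CRTAP, FKBP10 and BMP1, which also act on procollagen, were at 0.12, 0.15 and 0.04.

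Among proteases and their inhibitors 14 of 17 lay below 0 (median -0.19), and 4 had an unadjusted p under 0.05: SERPINF1, TIMP1, HTRA1 and the urokinase gene PLAU. SERPINF1, which encodes the secreted factor PEDF, a product of fat and stromal cells, had signals of 3926, 6008 and 7819 in D298 and 2704, 3703 and 5005 in N298. Its difference was -0.60 ± 0.13 with an interval of -0.86 to -0.33 (adjusted p = 0.236), and 5 N298 arrays lay below every D298 array. TIMP1, an inhibitor of matrix metalloproteinases, had signals of 487 to 898 in D298 and 341 to 547 in N298 and a difference of -0.56 ± 0.14 (adjusted p = 0.317). On the low-muscle arrays SERPINF1 was at -0.52 and TIMP1 at -0.54. HTRA1 had signals of 3129 to 4532 in D298 and 1891 to 3067 in N298, without overlap, at -0.52 ± 0.17 (adjusted p = 0.497), while its dimmer probe set gave 0.77 ± 0.43 and the low-muscle arrays -0.27. The metalloproteinases MMP2 and MMP14 and the inhibitor TIMP2 were each at -0.18, with intervals that included 0. MMP1 was too dim to place, with signals of 1.28 to 38.8 over both groups.

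Receptors and growth factors that act on the matrix had list medians nearer to 0. Of 10 integrins and matrix receptors 8 lay below 0 (median -0.10), with ITGB3 (-0.49) and ITGB5 (-0.23) at an unadjusted p under 0.05. ITGB1, the shared chain of collagen and fibronectin receptors, was bright and at -0.08 with an interval of -0.22 to 0.06. Of 14 genes of TGF-beta and activin signalling, the main pathway that drives matrix production, 9 lay below 0 (median -0.10). The ligand TGFB3 was at -0.51 ± 0.20 (adjusted p = 0.635, and -0.26 on the low-muscle arrays), and the type I receptor TGFBR1 at 0.24 ± 0.08 (adjusted p = 0.506), with 5 of 6 D298 arrays below the N298 range. Its dimmer probe sets gave 0.17 and -0.81. TGFB1 was at -0.09 and activin A (INHBA) at 0.00.

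No marker of stromal cells was called. Of 12 markers of fibroblasts and adipocyte progenitors 8 lay below 0 (median -0.23) and 4 had an unadjusted p under 0.05, but this list shares DCN, LUM, COL3A1, DPT and MFAP5 with the matrix lists. Outside that overlap THY1, a surface protein of fibroblasts and progenitors, had signals of 4211, 4820 and 7720 in D298 and 1901, 3124 and 4998 in N298, with 5 N298 arrays below every D298 array. Its difference was -0.74 ± 0.16 (1.67-fold, adjusted p = 0.248), and its 2 dimmer probe sets gave -0.82 and -1.83. The other 6 fibroblast markers had intervals that included 0: CD34 was at -0.23, PDGFRB at -0.13, vimentin (VIM) at 0.00, S100A4 at 0.04, FAP at 0.05 and DPP4 at 0.06. On the arrays of low muscle signal THY1 was at -0.40 and the median of the fibroblast list at -0.09.

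No vessel marker was called, and the lists for the vessel lining and wall were not tested against each other. The 15 endothelial markers had a median of 0.00, with 8 below 0 and 1 at an unadjusted p under 0.05, the growth factor receptor FLT1 at -0.51. The receptors KDR and ENG were at -0.45 and -0.21, and PECAM1, CDH5, TEK and ESAM, which define blood vessel lining, were at 0.04, -0.13, -0.11 and 0.00. Of 9 pericyte and smooth muscle markers 8 lay below 0 (median -0.33), with 2 at an unadjusted p under 0.05. CNN1, calponin of smooth muscle, had signals of 290, 628 and 1191 in D298 and 234, 317 and 440 in N298, a difference of -0.88 ± 0.31 (adjusted p = 0.541). MYL9, a myosin light chain of smooth muscle, was at -0.43. On the low-muscle arrays CNN1 was at -1.02 and MYL9 at -0.51. DES, which skeletal muscle also makes, was at -0.68 with an interval of -2.22 to 0.86. The part of the skeletal muscle signal, whose own 19 markers had a median of -0.66 with 18 below 0 and 0 at an unadjusted p under 0.05, was not tested for these genes.

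The same matrix genes were set beside the other contrasts. In fed fat their median difference was -0.01, with 38 of 75 below 0. At an unadjusted p under 0.05, 5 were lower and 0 higher. Of all 6765 genes in fed fat 3210 lay below 0, and at that level 131 were lower and 145 higher. In either direction these were 4.08% of all genes, and 4.52% of probe sets. The genotype difference in fasted fat minus that in fed fat, the interaction, had a median of -0.24 for the 75 genes. Of these, 59 lay below 0 (all genes: 3457 of 6765). At an unadjusted p under 0.05, 18 lay below 0 (3.71% of all genes and 2.88% of probe sets). No interaction was called over all probe sets in limma (0%, with 1368 probe sets or 5.70%, and 6.71% of genes, at an unadjusted p under 0.05). FBLN1 had the smallest interaction p of the named genes. It was at 0.24 in fed and -0.87 in fasted fat, an interaction of -1.11 with an unadjusted p of 0.000111. TIMP1 was at 0.27 in fed and -0.56 in fasted fat (interaction -0.83), and IFI30, a lysosomal thiol reductase of antigen-presenting cells, at 0.62 and -0.52 (interaction -1.14). FBLN1, TIMP1 and IFI30 were picked by their interaction p. Other matrix genes were lower in N298 in both states. LOX was at -0.68 in fed and -0.96 in fasted fat (interaction -0.28), CILP at -0.56 and -1.12 (interaction -0.56) and LUM at -0.25 and -0.28 (interaction -0.03). In fasted liver, taken from a model of both tissues that treats the gilt as random, 5 probe sets (0.0208%) and 1 gene (0.0148%) were called. There the median of the 75 genes was -0.03 with 43 below 0 (all genes: 3678 of 6765), and FBLN1 was at -0.27. No gene differed between the tissues in this genotype contrast after adjustment (0 of 23999 probe sets, 0%, and 4.78% of probe sets and 4.75% of genes at an unadjusted p under 0.05).

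Outside the matrix lists, STIP1, MPZL1 and IRF9 were among the 10 brighter genes of smallest p on the lower side, each with every N298 array below every D298 array. STIP1, a co-chaperone between heat shock proteins, had signals of 897 to 1231 in D298 and 649 to 847 in N298 (-0.48 ± 0.11, adjusted p = 0.308). MPZL1, a surface glycoprotein, had signals of 824 to 1246 in D298 and 540 to 812 in N298 (-0.51 ± 0.12, adjusted p = 0.317). On the low-muscle arrays STIP1 was at -0.53 and MPZL1 at -0.51. Chemerin (RARRES2), an attractant for immune cells that fat secretes, had signals of 1392, 1991 and 2874 in D298 and 957, 1276 and 1431 in N298. Its difference was -0.71 ± 0.17 (adjusted p = 0.317, and -0.38 on the low-muscle arrays), and 5 D298 arrays lay above every N298 array.

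On the higher side none of the 10 brighter genes of smallest p was called. FGGY, a carbohydrate kinase, had signals of 423, 702 and 776 in D298 and 882, 964 and 1055 in N298, without overlap, at 0.56 ± 0.12 (adjusted p = 0.236). It was at -0.11 in fed fat and 0.59 in fasted liver. GRSF1, which binds mitochondrial RNA, had signals of 3530 to 4386 in D298 and 4538 to 5187 in N298, also without overlap, at 0.36 ± 0.08 (adjusted p = 0.308). HMGN3, a chromatin protein, and C1H18orf32 separated the groups as well, at 0.31 and 0.39. ADHFE1, an alcohol dehydrogenase of mitochondria, CCNC, a cyclin of the mediator complex, POLR1E, a subunit of RNA polymerase I, GTPBP10, C6H18orf21 and LOC100518827 were between 0.31 and 0.58, with adjusted p values of 0.308 to 0.317. On the low-muscle arrays C6H18orf21 was at 0.16, and 1 of the 2 dimmer probe sets of GTPBP10 gave -0.32. Over all genes 15 (0.222%) separated the groups downward and 21 (0.310%) upward.

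Adipocyte genes did not share the matrix shift. Of 10 adipocyte markers 2 lay below 0 (median 0.14), and 0 had an unadjusted p under 0.05 in either direction. ADIPOQ was at 0.04 with an interval of -0.26 to 0.34, and its group medians were 28038 in D298 and 28150 in N298. Leptin (LEP), the satiety hormone of fat, spread widely: 101, 245 and 1459 in D298 and 99.6, 560 and 959 in N298, a difference of 0.74 ± 0.50 with an interval of -0.30 to 1.79. Its dimmer probe set gave 0.14, and on the low-muscle arrays it was at -0.57. PPARG, the master regulator of adipocytes, was at 0.23 ± 0.11 (adjusted p = 0.726). The adiponectin receptor ADIPOR2 was at 0.31 ± 0.10 (adjusted p = 0.506), with 5 N298 arrays above the D298 range, while its dimmer probe set gave -0.11.

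No lipid gene was called, and more of them lay above 0 than below. Of 14 genes of triglyceride synthesis and fatty acid uptake 2 lay below 0 (median 0.14) and 0 had an unadjusted p under 0.05, with DGAT2, the last enzyme of triglyceride synthesis, at 0.28. Lipoprotein lipase (LPL) was at -0.01 with an interval of -0.22 to 0.19, and at -0.36 on the low-muscle arrays. Of 11 lipolysis and droplet genes the lipases PNPLA2, LIPE and MGLL were at 0.28, 0.15 and 0.27, and the list median was 0.02. Dimmer probe sets of PNPLA2 and MGLL gave -0.02 and 0.11. Fatty acid synthase (FASN) was at -0.05 with an interval of -0.60 to 0.50, and the desaturase SCD at 0.46 with an interval of -0.17 to 1.10, among 12 fatty acid synthesis genes, 4 of them below 0, with a median of 0.11. FASN signals were 1296, 1481 and 5638 in D298 and 1353, 2145 and 2813 in N298. TKT, also of the fatty acid synthesis list, was at 0.33. It and MGLL of the lipolysis list were the only members of these lists at an unadjusted p under 0.05. Of 23 genes of oxidative phosphorylation 3 lay below 0 (median 0.13), with the dehydrogenase SDHA (0.30) and the ATP synthase gene ATP5A1 (0.23) at an unadjusted p under 0.05. All 23 intervals lay within 2-fold. The gluconeogenic gene PCK1 was at -0.05, and 16 genes that respond to glucocorticoids, FOXO factors and fasting had a median of -0.01.

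MC4R itself was near the floor of the arrays in fat. Its signals were 1.57, 13.0 and 16.3 in D298 and 4.82, 19.9 and 31.0 in N298, and the difference of 0.67 ± 0.79 has an interval of -0.99 to 2.32. An expression signal does not read the amino acid change, so it does not check the genotype. Of 20 genes of melanocortin and sympathetic signalling 9 lay below 0 (median 0.02). The uncoupling protein gene UCP3 was at 0.68 ± 0.19 (adjusted p = 0.439), with 5 N298 arrays above every D298 array. Its dimmer probe set gave 0.43, and UCP3 was at 0.97 on the low-muscle arrays and at -0.87 in fasted liver. The beta adrenergic receptor ADRB1 was at -0.55 ± 0.26 (adjusted p = 0.724), with 0.48 on its dimmer probe set.

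No immune gene was called in fasted fat, and the complement, macrophage and lymphocyte lists had medians of opposite sign in fasted and fed fat. Of 20 complement and acute phase genes 18 lay below 0 (median -0.42), 6 at an unadjusted p under 0.05, and in fed fat the median was 0.35. C1R, a protease that starts the complement cascade, had signals of 5495, 6541 and 12567 in D298 and 2890, 4740 and 6205 in N298, and 5 N298 arrays lay below every D298 array. Its difference was -0.73 ± 0.18 (adjusted p = 0.317). It passed the threshold without D298 fasted array 1 (-0.92, adjusted p = 0.0485). SERPING1, the inhibitor of C1R, was at -0.39 ± 0.12 (adjusted p = 0.455), and C3, the central complement protein, at -1.19 with an interval of -2.21 to -0.17. Hepatocytes make these proteins too. The hepatocyte markers had a median of -0.42 in this contrast, all 13 below 0, and the 6 complement genes became 3 without D298 fasted array 5, the one with hepatocyte signal, and 3 without D298 fasted array 2. In these 2 settings 2.87% and 3.44% of all genes were lower at that level, against 3.86% with all arrays. Without the 4 arrays of high hepatocyte signal the complement median was -0.21, with 5 at an unadjusted p under 0.05 (all genes lower: 3.00%).

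Of 17 interferon response and MHC class I genes 14 lay below 0 (median -0.29), 5 at an unadjusted p under 0.05. IRF9, the DNA-binding part of the interferon-activated factor, had signals of 430, 489 and 693 in D298 and 313, 361 and 430 in N298 (-0.56 ± 0.13, adjusted p = 0.308). The groups met at 430 without crossing. USP18, which dampens interferon signalling, was at -0.64, MX1, an antiviral GTPase, at -0.87, and B2M, the constant chain of MHC class I, at 0.00. The 5 became 3 without D298 fasted array 2, D298 fasted array 5, N298 fasted array 2 or the fat arrays numbered 2 or 5, and 9 without D298 fasted array 4. In fasted liver the median of the list was -0.52.

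Of 11 macrophage markers 10 lay below 0 in fasted fat (median -0.30), 0 at an unadjusted p under 0.05, while in fed fat the median was 0.66 and 6 were higher at that level. T, NK and B cell markers had medians of -0.25 in fasted and 0.47 in fed fat. MHC class II genes were near 0 in fasted fat (median -0.03) and at 0.36 in fed fat. In the plot of list medians the complement, macrophage and lymphocyte lists, like the hepatocyte and muscle markers, lie on opposite sides of 0 in the fasted and fed states. The hepatocyte markers are themselves high on 3 of the 12 fed arrays and 1 of the 12 fasted arrays, and their part in the immune values was not tested.

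**Figure D5:**
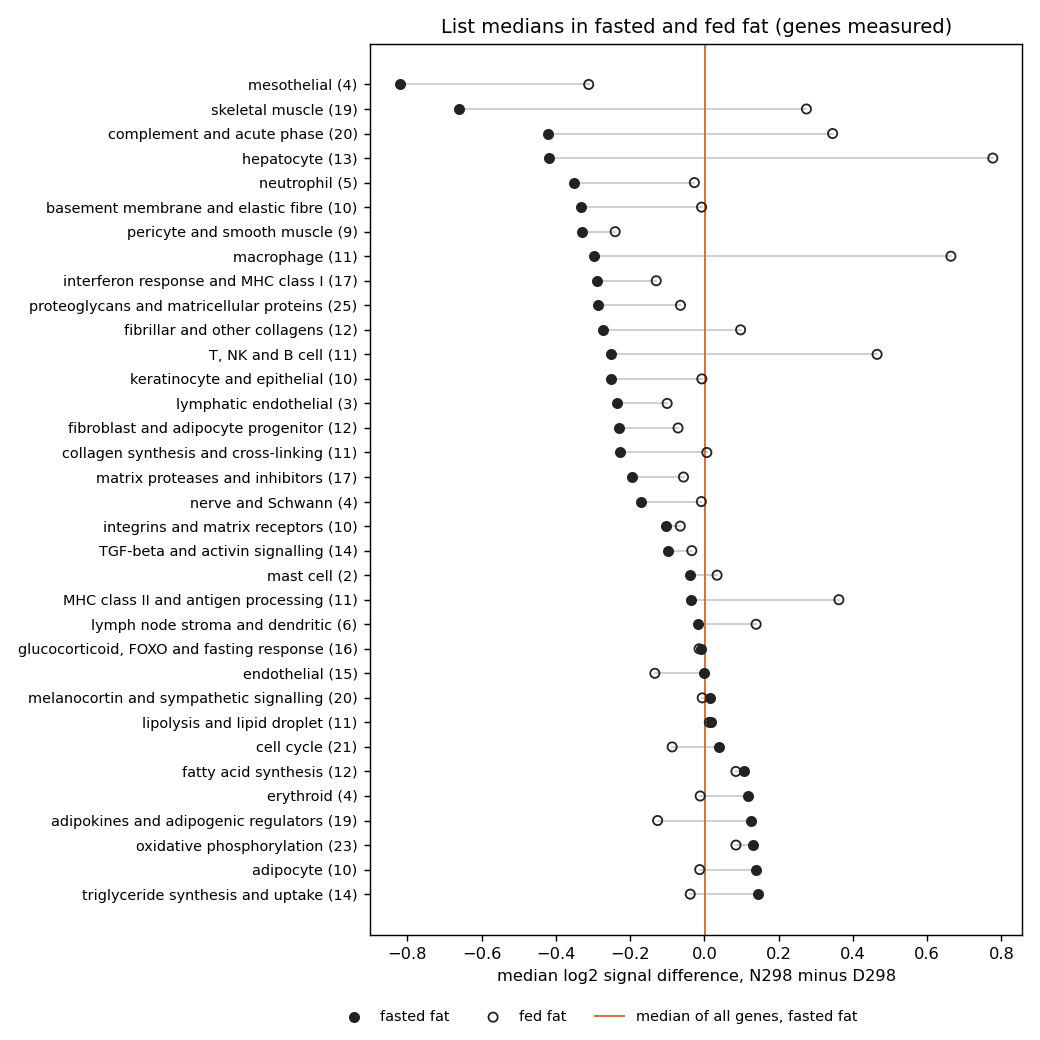
Median N298 minus D298 difference (log2, horizontal axis) of 34 gene lists in fasted fat (filled) and fed fat (open), with the number of genes measured in brackets; the line marks the median of all genes in fasted fat. Matrix lists lie between -0.33 and -0.19 in fasted fat and between -0.06 and 0.10 in fed fat, and adipocyte and triglyceride lists lie at 0.14 in fasted fat.

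The remaining lists added little. Of 21 cell cycle genes 9 lay below 0 (median 0.04), with the cyclin CCND2 at -1.07 ± 0.34 (adjusted p = 0.505). The 4 mesothelial markers had a median of -0.82, and CALB2 (-0.75) and KRT19 (-1.66, and -0.14 on the low-muscle arrays) among them had an unadjusted p under 0.05. Medians were -0.35 for 5 neutrophil, -0.04 for 2 mast cell, 0.12 for 4 erythroid, -0.25 for 10 keratinocyte and epithelial, -0.02 for 6 lymph node and dendritic, -0.17 for 4 nerve and -0.24 for 3 lymphatic endothelial markers.

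Genes on the chromosome of MC4R were counted apart. Of 553 measured genes on its chromosome 62 (11.2%) had an unadjusted p under 0.05, against 461 of 6139 (7.51%) on other chromosomes, and the smallest adjusted p on that chromosome was 0.308. Of the 20 measured genes nearest to MC4R, 3 had an unadjusted p under 0.05: CILP, one of the matrix genes above, SERPINB11 at -0.85 and CALML4 at -0.76. Among probe sets with no gene symbol, the one of smallest p had signals of 769, 1362 and 1953 in D298 and 270, 442 and 822 in N298 (-1.43 ± 0.26, adjusted p = 0.213). Another was higher in N298 without overlap, at 160 to 291 in D298 and 385 to 847 in N298 (1.45 ± 0.29, adjusted p = 0.213). In fasted liver the same probe set was at 1.39.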

How the data were processed

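RNA of fat and liver was hybridised to Affymetrix porcine arrays after one-cycle biotin labelling, per the labels' protocols. The deposited values are linear signal intensities, 1 for each probe set of an array. The tools were affy and MAS5, per the submitters' processing notes. Of 24123 probe sets 124 controls were left out, and log2 was taken with nothing added. In the probe annotation 10069 probe sets carried 1 symbol, 198 carried more and 13732 carried no symbol. Of them 9961 matched the RefSeq gene table of Sscrofa11.1, and 0 symbols differed. A gene is its brightest probe set (2261 of 6765 genes had more than 1).

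A linear model of the 24 fat arrays (limma 3.58.1, R 4.3.3) combined lmFit with a trended eBayes step. It held the 4 groups and, because the design text describes blocks, a fixed term for each of the 6 replicate numbers. Residuals of an N298 and a D298 fasted array with the same number correlated by -0.02 to 0.15 (median 0.09, 2 of the 6 pairs above 0.1). For such pairs with different numbers they correlated by -0.15 to 0.15 (median -0.01), so the numbers are a block by the design text only. Liver values came from a model of both tissues on 48 arrays, in which arrays of a gilt were correlated (0.0841). The gilt was inferred there from genotype, feeding state and replicate number. Tests were 2-sided, adjusted by Benjamini-Hochberg over 23999 probe sets and called at 0.05; intervals are moderated and at 95%. Only the fasted contrast of the fat model was tried on simulated data, with independent noise and no block effects. The interaction and the model of both tissues were not. The comparison and the 34 gene lists (18 pathway, 16 marker) were chosen with earlier results of these data known. Named genes are the 10 of smallest p in each direction among brighter genes, 2 to 4 of each list by p, some fixed by name and the 5 of smallest interaction p; other list members named here were chosen after their values were seen. Alternatives were no or a random block, the 12 fasted arrays alone, quantile normalization, median-centring, brighter probe sets, 32 added, no trend, array weights and leaving out arrays; 5 more, on marker means, arrays and RNA quality, were added after seeing the data. Figures used Matplotlib. No 2 fat arrays were copies (highest correlation 0.941), and the liver arrays were not checked for this.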

Additional observations from a re-analysis of the deposited data

Results flagged for a closer look

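In groups of 6 arrays, 290 groups of named genes and list means were searched for an array far from the others, and 19 (6.55%) held one, where chance gives about 1 in 20. In each case below 1 array stood apart from the other 5 of its group.

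Among matrix and stromal genes, PCOLCE2 was at 3518 on D298 array 3 (the next array at 6634) and at 2185 on N298 array 3 (the next at 3844). MFAP2 was at 428 on N298 array 3, COL3A1 at 78.2 on N298 array 1 (the next at 242) and the endothelial receptor KDR at 80.2 on D298 array 1. Among metabolic genes, FGGY was at 423 on D298 array 2, MGLL at 3367 on D298 array 5, PCK1 at 6737 on N298 array 3 (the next at 3591), PGD at 1853 on N298 array 6 and TKT at 9265 on D298 array 1. Dim genes were MC4R at 1.57 on D298 array 6, CALB2 at 36.5 on D298 array 1, EPCAM at 6.42 on N298 array 6 and NEFL at 20.6 on N298 array 3.

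Of the list means (log2), hepatocyte markers were at 9.72 on D298 array 5, where triglyceride synthesis and uptake genes were at 10.04 (the next at 10.33). Lipolysis genes were at 9.81 on N298 array 5, lymphatic endothelial markers at 7.66 on D298 array 3 and neutrophil markers at 4.48 on N298 array 1.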

How the results depend on the processing

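Without the replicate block 0 probe sets were called in fasted fat (smallest adjusted p 0.279) and 0 in fed fat, as with it. Then 25 in place of 30 matrix genes were lower at an unadjusted p under 0.05 (all genes lower: 3.06%). Counts of calls stayed at 0 except with the 12 fasted arrays alone (1, an unnamed probe set at 1.45, adjusted p = 0.0353), without the arrays numbered 1 (2, both unnamed) and without D298 fasted array 1 (3, these and C1R), so that leaving out arrays gave 0 to 3 calls, and 0 to 4 for the interaction, the 4 without the arrays numbered 1. The matrix median lay between -0.30 and -0.22 when arrays were left out. With each array centred on its median it was -0.23. At an unadjusted p under 0.05, 22 matrix genes were then lower and 0 higher (all genes: 2.50% and 5.79%). On the 3 and 3 fasted arrays of low muscle signal the median was -0.0612 for basement membrane, -0.0536 for collagen synthesis and -0.0861 for fibroblast genes, and 50.3% of intervals lay within 2-fold. Some uncalled differences changed sign, among them MFAP5 (-0.61), MMP1 (1.07), SERPINA1 (-0.90), LEP (0.74) and TNNI2 (-1.77), which were not near 0. On those low-muscle arrays MFAP5 was at 0.000531, NID2 at -0.20, MMP1 at -2.21, ITGAV at -0.0619, FAP at -0.0161, SERPINA1 at 1.01, LEP at -0.57, ADIPOQ at -0.0937 and PCK1 at 0.0495. Without the hepatocyte-rich arrays ITGAV was at -0.0574, ADIPOQ at -0.0368 and PCK1 at 0.0319. PCK1 was at 0.05001 with the muscle covariate, ADIPOQ at -0.0136 with both marker covariates and TNNI2 at 0.0934 with the GAPDH covariate. SPARC was at -0.00469 after quantile normalization, LPL at 0.0264 after median-centring, and with array weights MS4A2 was at -0.0324, FASN at 0.0121 and LPL at 0.0212. Leaving out arrays gave ranges of -0.0776 to 0.15 for ADIPOQ, -0.25 to 0.61 for CD83, -0.48 to 0.12 for COL3A1, -0.0365 to 0.11 for FAP, -0.21 to 0.25 for FASN, -0.0929 to 0.23 for HBM, -0.0728 to 0.15 for ITGAV, -0.0913 to 0.0703 for LPL, -0.25 to 0.35 for MS4A2, -0.0607 to 0.29 for NID2, -0.38 to 0.18 for PCK1 and -0.00328 to 0.0832 for SPARC. The causes were not tested. The number of arrays and dim signal limit precision.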
